A study of Mus musculus with 12 samples.

Results

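The comparison described here sets 3 tumor samples from mice that lack Stat3 in their myeloid cells, by conditional deletion, against 3 tumor samples from wild type mice. These are 6 of the 12 samples of the series, chosen by their labels, Stat3dm tumor and Stat3wt tumor, and the other 6 are the stroma of such tumors. All mice, wild type included, carried colorectal tumors induced by AOM/DSS, in which the carcinogen azoxymethane is combined with colitis caused by dextran sulfate sodium. Tumor was cut from stroma by laser-capture microdissection of paraffin-embedded tissue, each sample pooled 2 tumors of 1 mouse, and 50 ng of its RNA went onto 1 array. The labels give neither the Cre driver or alleles behind the deletion nor the age, sex or strain of the mice. The values are log2 signals, so a difference of 1 is a 2-fold difference. Of 22180 named genes, 16635 were bright enough to be tested.

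STAT3 is a transcription factor that cytokine receptors switch on, in macrophages and neutrophils as well as in epithelial cells. In the intestine, Wnt ligands keep crypt stem cells dividing by stabilising beta-catenin, which works with the DNA-binding proteins TCF and LEF. The pathway also switches on its own brakes, secreted or membrane proteins such as DKK2, WIF1, NOTUM and APCDD1, so transcripts of these inhibitors are commonly read as targets of the pathway in colorectal tumors.

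Dkk2, Stra6 and Plat fell in deletion tumors, and they were the genes that passed limma's test at adjusted p 0.05. Of all genes tested, 0.018% passed, 3 lower and 0 higher. At an unadjusted p under 0.05 there were 749 lower genes (4.5%) and 293 higher ones (1.76%). Dkk2, a secreted regulator of Wnt receptors, was at 6.79, 6.79 and 7.09 in wild type tumors 1 to 3 and at 4.43, 4.95 and 4.83 in deletion tumors 1 to 3. The 2 groups lay far apart, with little spread inside either. The log2 difference was -2.16 ± 0.25 (SE), with a 95% confidence interval of -2.69 to -1.62 and a limma adjusted p of 0.0076. The signals as deposited give a 4.46-fold fall, and whether the deletion tumors were above the background of this probe set is not known here.

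Stra6 encodes the membrane receptor through which cells take up retinol from its carrier in blood. Its signal was 8.37, 8.38 and 8.20 in wild type tumors and 4.90, 6.17 and 5.40 in deletion tumors. The log2 difference was -2.83 ± 0.37 (SE), a 7.09-fold fall (limma adjusted p = 0.0136). Plat, the tissue-type activator that turns plasminogen into the protease plasmin, was at 7.98, 7.74 and 7.89 in wild type and at 4.65, 5.65 and 6.42 in the deletion. It fell by 2.29 ± 0.34 (SE) on the log2 scale (limma adjusted p = 0.0466). In all 3 genes the wild type tumors were close together and every deletion tumor lay below every wild type tumor. Because these are bulk samples, fewer cells that express a gene and less of its RNA per cell cannot be told apart.

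The 3 calls did not all survive the loss of a sample. Without wild type tumor 3 no gene passed in limma, and the adjusted p was 0.061 for Dkk2, 0.0636 for Stra6 and 0.207 for Plat, while the log2 differences stayed at -2.06, -2.88 and -2.28. Stra6 also lost its call without wild type tumor 2 (limma adjusted p = 0.0913) and without deletion tumor 1 (0.0523). Plat kept its call only without deletion tumor 3, and lost it without wild type tumor 1 (limma adjusted p = 0.0905), wild type tumor 2 (0.126), deletion tumor 1 (0.0523) or deletion tumor 2 (0.147). In 5 of the 6 such fits Dkk2 remained called.

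Tumors with the same number tended to deviate from their group means together, with correlations of 0.317, 0.15 and 0.692 for numbers 1 to 3. The comparison was therefore also made with the number as a block on the 6 tumor arrays. It then gave 186 genes, 151 lower (0.908% of those tested) and 35 higher (0.21%), with Dkk2, Stra6 and Plat among them. Adjusted p-values from that fit are named below as blocked. The labels say nothing of a shared litter, cage or day behind a number, and the samples of 1 number come from different mice. The block was chosen from these same values, and wild type tumor 2 correlated better with deletion tumor 1 (0.593) than with deletion tumor 2. A gene that passed only with the block thus depends on a pairing that the labels do not give.

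**Figure D1:**
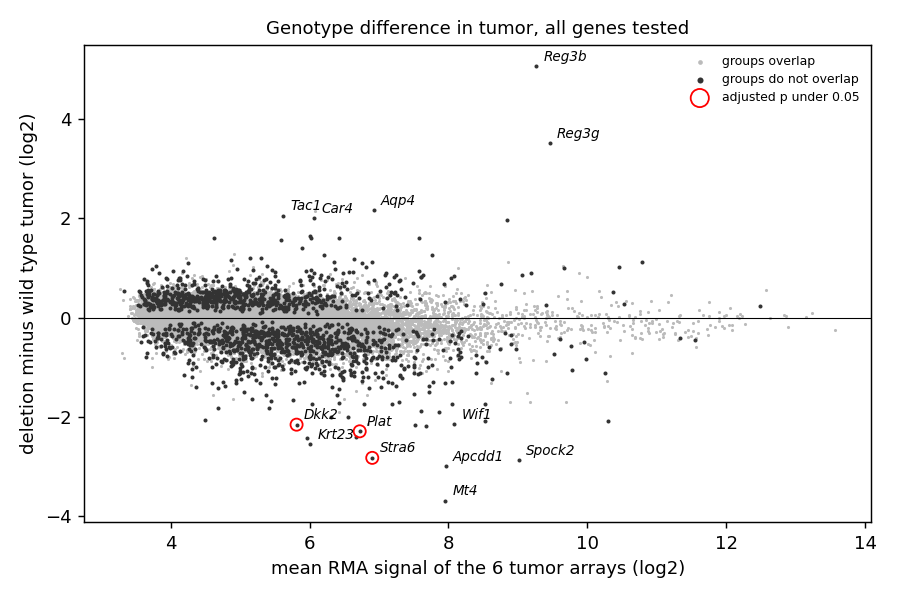
Deletion minus wild type tumor (log2) for the 16635 genes tested, against the mean signal of the 6 tumor arrays (log2). Dark points are the 909 lower and 674 higher genes whose groups of 3 do not overlap, red circles are Dkk2, Stra6 and Plat, and the largest differences lie below 0 for Mt4 and above 0 for Reg3b.

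By size, the differences were mostly on the lower side. At least a 2-fold difference was seen for 161 genes lower and 36 higher in deletion tumors, and at least a 4-fold one for 18 lower and 5 higher. The groups did not overlap for 909 lower genes (5.46%) and 674 higher ones (4.05%), together 9.52% of those tested. The median over all genes was near 0, at -0.0094. After quantile normalization the split of non-overlapping genes turned, to 953 lower and 1025 higher. It also turned when dim genes were not left out, to 990 lower and 1088 higher. With the lowest 50% of genes left out it was 736 lower and 408 higher, so the split depends on the cut for dim genes.

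The arrays differed in ways that touch these counts. The standard deviation (SD) of the log2 values was 1.79, 1.75 and 1.91 in wild type tumors and 1.65, 1.72 and 1.85 in deletion tumors, so deletion tumor 1 was the narrowest of the 6 and wild type tumor 3 the widest. These 2 arrays also had the lowest correlation of the 6, 0.796. Among the 503 lower genes with non-overlapping groups and an unadjusted p under 0.05, deletion tumor 1 was the lowest sample in 347 (69.0%). Among 220 such higher genes, deletion tumors 1 and 3 were the highest sample in 97 and 99. With the spread of each array as a covariate, 14 genes passed, 12 lower and 2 higher.

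Epithelial markers were used to check the tissue, and their level overlapped between the groups. The mean log2 signal of 18 such genes was 8.67, 8.09 and 8.57 in wild type tumors and 8.08, 8.38 and 8.73 in deletion tumors, against 7.45 and 7.52 in wild type and deletion stroma. Epcam, the epithelial adhesion molecule, was at 8.90, 8.50 and 9.10 in wild type and 8.26, 8.72 and 9.01 in the deletion. Its log2 difference of -0.17 ± 0.30 (SE) was within the spread between samples, and it was 0.07 with the array spread as a covariate. A list of liver, muscle and pancreas markers, which should be absent, averaged 4.74 to 5.16 in the 6 samples.

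Stat3 did not differ between the groups beyond their spread. Its signal was 7.48, 7.43 and 8.22 in wild type tumors and 7.08, 7.28 and 7.97 in deletion tumors, and the groups overlapped. The difference was -0.27 ± 0.32 (SE), with an interval of -0.95 to 0.42 and a limma adjusted p of 0.858, and 0.14 with the array spread in the model. The deletion, as labelled, concerns myeloid cells only, and where the probe set lies relative to the deletion is not known here, which makes Stat3 no check of the labels. Leukocyte genes as a list averaged 5.59, 5.60 and 5.90 in wild type and 5.69, 5.74 and 5.95 in the deletion. Of 20 macrophage and monocyte genes, 14 lay below 0, with a median of -0.14 and 1 lower without overlap (5.46% of all genes). That median has no steady sign. It was -0.021 without wild type tumor 3, -0.003 with 10 of 20 below 0 without deletion tumor 1, 0.17 with the array spread in the model and 0.16 with array weights. Cd68, a lysosomal protein of macrophages, was at 6.86, 6.84 and 7.58 in wild type and at 6.39, 6.66 and 6.86 in the deletion, which overlap, and its difference of -0.46 was -0.21 without wild type tumor 3.

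Stem cell and Wnt target genes were the list with the lowest median of those shown here. Of 24 genes named, 21 were tested, and 20 of them lay below 0, where 51.3% of all genes did. Their median log2 difference was -1.01, against -0.0094 for all genes, and 14 had groups that did not overlap, all lower (5.46% of all genes). Like the other lists, this one was chosen with earlier results of these data known. As it holds several of the largest falls, its counts are a description and not a test. Only Dkk2 passed over all genes in the fit without a block, and 10 passed, all lower, with it (0.908% of all genes). The mean log2 signal of the list was 7.44, 7.49 and 8.001 in wild type tumors and 5.76, 6.70 and 7.03 in deletion tumors. The deletion tumors were all below the wild type tumors, with deletion tumor 1 the lowest. Without deletion tumor 1 the median was -0.68, with the array spread in the model -0.67 and after quantile normalization -0.84. The part of the array spread in these differences was not tested further.

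Sorted by role, which was done after their values were seen, the feedback inhibitors of the pathway stood lowest. They are Apcdd1, Dkk2, Wif1, Nkd1, Notum, Axin2, Rnf43 and Znrf3. All 8 had non-overlapping groups, where 5.46% of all genes were lower without overlap. Their differences ran from -3.00 to -1.01 with a median of -1.89. With the block 7 passed, where 0.908% of all genes were lower and passed. Since the role was set after the values were seen, these counts are no test of the pathway. The mean signal of these inhibitors was 8.01, 8.20 and 8.54 in wild type tumors and 5.35, 6.75 and 7.18 in deletion tumors. Dkk2, which differed least among the deletion tumors, is one of them.

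Apcdd1 encodes a membrane protein that binds Wnt and its receptor and blocks the signal. It was at 9.47, 9.50 and 9.42 in wild type tumors and at 5.22, 6.87 and 7.31 in deletion tumors. The wild type tumors were nearly equal and the deletion tumors spread over more than 2 log2 units below them. The difference of -3.00 ± 0.47 (SE), 7.97-fold, just missed the test without a block (limma adjusted p = 0.0531) and passed with it (blocked limma adjusted p = 0.000689). It also passed in limma without deletion tumor 3, with the spread of the arrays in the model, and after quantile normalization.

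Wif1 encodes a secreted protein that captures Wnt ligands. Its signal was 8.73, 9.39 and 9.34 in wild type and 5.28, 7.58 and 8.18 in the deletion, a difference of -2.14 ± 0.61 (SE). The groups did not overlap, but deletion tumor 1 was far below the others, and without it the difference was -1.28. Wif1 did not pass without the block (limma adjusted p = 0.405) and passed with it (blocked limma adjusted p = 0.00984).

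Notum is a secreted enzyme that strips the lipid Wnt needs to bind its receptor. It was at 8.19, 8.56 and 8.87 in wild type tumors and at 5.08, 7.09 and 7.80 in deletion tumors. Nkd1, which binds Dishevelled inside the cell, was at 8.39, 8.71 and 9.34 against 5.78, 7.23 and 7.75. Both differed by -1.89 on the log2 scale, did not overlap, and passed with the block but not without it (blocked limma adjusted p = 0.0145 for Notum and 0.002 for Nkd1). Without deletion tumor 1 the difference of Notum was -1.10. A further probe set of Notum was also lower, at -1.14.

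Axin2, the scaffold of the complex that destroys beta-catenin and a standard readout of Wnt signalling, was at 8.14, 8.24 and 8.84 in wild type and at 6.09, 7.08 and 7.94 in the deletion. Its difference was -1.37 ± 0.40 (SE), with a blocked limma adjusted p of 0.0159, and its other probe set gave -1.42. Without deletion tumor 1 the difference was -0.90. Rnf43 and Znrf3 are related ubiquitin ligases that remove Wnt receptors from the cell surface. Their differences were -1.13 and -1.01, with non-overlapping groups in both, and -0.68 and -0.63 without deletion tumor 1. Znrf3 passed with the block (blocked limma adjusted p = 0.0411) and Rnf43 did not (0.0506).

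**Figure D2:**
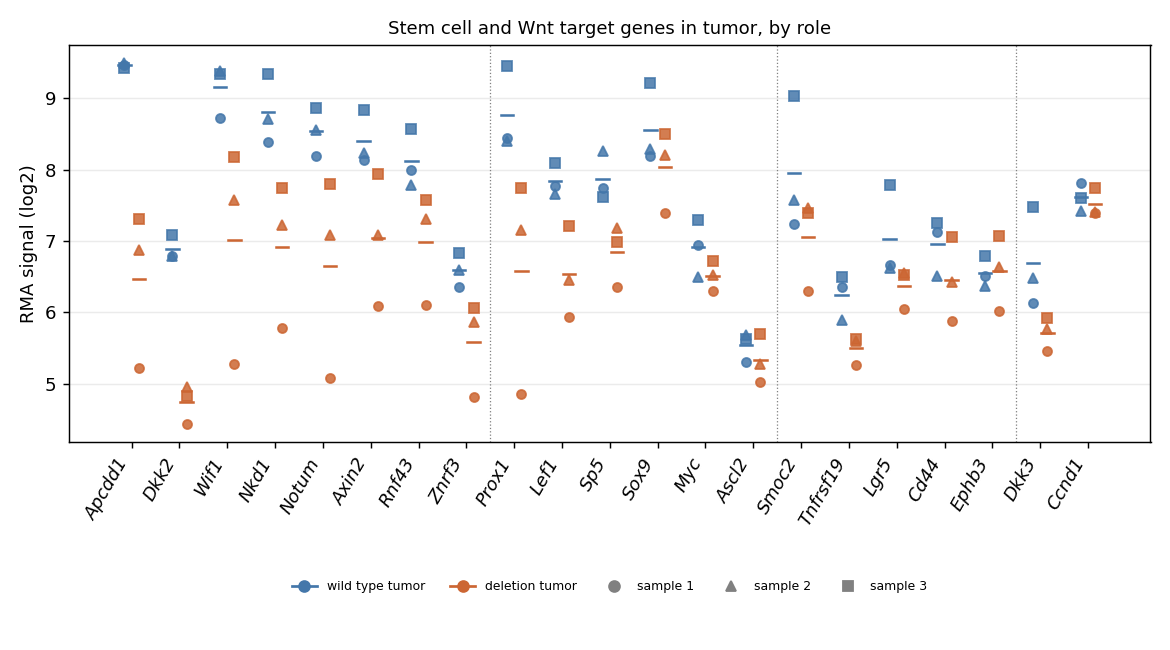
RMA signal (log2) of the 21 tested stem cell and Wnt target genes in each tumor sample, with wild type in blue, deletion in orange, the sample number as the symbol and the group mean as a bar. From left to right, dotted lines part inhibitors, transcription factors, crypt surface or secreted proteins, and the 2 other genes, and groups are apart in all 8 inhibitors and overlap in most genes of the other sets.

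The transcription factors of the list were split. Prox1, a homeobox factor, was at 8.45, 8.40 and 9.46 in wild type tumors and at 4.85, 7.16 and 7.74 in deletion tumors. Lef1, a DNA-binding partner of beta-catenin, was at 7.77, 7.66 and 8.10 against 5.94, 6.45 and 7.21. Sp5, which is switched on directly by Wnt signalling, was at 7.75, 8.26 and 7.62 against 6.35, 7.18 and 6.99. In these 3 genes the groups did not overlap, with differences of -2.18, -1.31 and -1.04, and each passed with the block (blocked limma adjusted p = 0.0109, 0.0136 and 0.033). The difference of Prox1 was -1.32 without deletion tumor 1. Sox9 and Myc, at -0.53 and -0.40, had overlapping groups and passed neither fit, and without wild type tumor 3 they were at -0.20 and -0.21.

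Crypt stem cell genes showed smaller differences. Lgr5, the receptor that marks crypt base stem cells, was at 6.67, 6.62 and 7.78 in wild type tumors and at 6.05, 6.55 and 6.53 in deletion tumors. The groups were separated by 0.07 log2 units, the difference was -0.65 ± 0.35 (SE), and neither fit called it (blocked limma adjusted p = 0.219). Wild type tumor 3 was the high one, and without it the difference was -0.27. The other probe set of Lgr5 gave -0.73, with overlapping groups. Tnfrsf19 was at -0.75 with groups that did not overlap, and Cd44, a hyaluronan receptor, at -0.51 with groups that did (-0.23 without deletion tumor 1). Ephb3, a guidance receptor of the crypt, differed by 0.02, and took values from -0.23 to 0.29 when single samples were left out. The 5 genes of this role ran from -0.90 to 0.02 with a median of -0.65, and 2 were lower without overlap (5.46% of all genes). With the block 0 passed in limma, where 0.908% of all genes were lower and passed.

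The sequence upstream of the start was set beside these differences for a few genes, because TCF and STAT proteins have known DNA motifs. For Stra6, Sp5 and Reg3b only a window that held the motif was taken, so their matches were fixed by that choice. RefSeq promoter windows of the 250 bases before the start were searched (mouse GRCm38.p6, plus strand in each case below). Capitals mark ATCAAAG, a TCF/LEF motif, or its reverse complement, and in Reg3b TTCNNNGAA, a STAT motif that reads the same on both strands. Stra6 (chr9:58129099-58129348, 1 of 4 listed starts) held the TCF/LEF motif, beginning 145 bases before the start, and Sp5 (chr2:70474673-70474922) its reverse complement, beginning 104 bases before. Reg3b (chr6:78370635-78370884), the gene with the largest difference on the higher side, held the STAT motif 129 bases before its start. The window of Dkk2 (chr3:132085042-132085291) held neither of these strings of letters.

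Dkk2: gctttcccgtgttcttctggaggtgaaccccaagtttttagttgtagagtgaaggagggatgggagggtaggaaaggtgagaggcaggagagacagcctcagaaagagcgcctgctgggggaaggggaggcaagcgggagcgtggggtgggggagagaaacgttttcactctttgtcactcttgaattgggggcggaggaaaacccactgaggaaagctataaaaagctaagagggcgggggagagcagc
Stra6: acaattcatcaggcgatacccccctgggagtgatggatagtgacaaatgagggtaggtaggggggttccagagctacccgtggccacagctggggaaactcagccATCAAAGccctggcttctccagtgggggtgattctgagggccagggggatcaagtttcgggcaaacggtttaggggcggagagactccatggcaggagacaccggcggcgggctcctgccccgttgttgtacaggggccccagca
Sp5: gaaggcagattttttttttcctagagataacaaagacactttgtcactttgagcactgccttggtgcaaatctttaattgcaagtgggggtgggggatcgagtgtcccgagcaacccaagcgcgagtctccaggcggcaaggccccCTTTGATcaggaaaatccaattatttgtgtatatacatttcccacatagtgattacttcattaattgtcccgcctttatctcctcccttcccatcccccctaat
Reg3b: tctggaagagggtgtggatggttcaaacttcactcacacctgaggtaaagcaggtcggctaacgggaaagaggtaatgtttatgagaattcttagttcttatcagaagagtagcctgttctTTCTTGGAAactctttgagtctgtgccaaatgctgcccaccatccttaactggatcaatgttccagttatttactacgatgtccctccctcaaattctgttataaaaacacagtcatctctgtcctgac

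Among all 32851 such windows, 3.21% held the TCF/LEF motif and 7.02% the STAT motif. Of the 18 windows found for 12 genes of the stem cell and Wnt target list, 2 (11.1%) held the first and 0 the second. A match describes these letters only and does not show binding.

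Beyond the Wnt list, the genes with the largest differences on the lower side included metal-binding proteins, keratins and lipases. Mt4 and Mt3, metallothioneins, were at 9.29, 10.26 and 9.84 and at 9.26, 9.86 and 9.58 in wild type tumors. In deletion tumors Mt4 was at 3.35, 7.09 and 7.88 and Mt3 at 6.07, 8.02 and 8.35. Their differences of -3.69 and -2.08 were without overlap but rested partly on deletion tumor 1, without which they were -2.31 and -1.38. Neither passed without the block (limma adjusted p = 0.404 for Mt4 and 0.265 for Mt3), and both passed with it (blocked limma adjusted p = 0.00473 and 0.00586).

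Spock2, a proteoglycan of the extracellular matrix, was at 9.88, 10.38 and 11.08 in wild type tumors and at 4.97, 8.71 and 9.04 in deletion tumors. It too had its lowest value in deletion tumor 1, and its difference of -2.88 was -1.58 without that sample. The keratin Krt23 was at 6.99, 6.81 and 8.05 against 3.43, 4.72 and 6.06, a difference of -2.55 ± 0.49 (SE). The hair-type keratin Krt36 was at 7.45, 7.00 and 8.20 against 4.54, 6.56 and 5.53, a difference of -2.00. All 3 genes had non-overlapping groups, did not pass without the block and passed with it (blocked limma adjusted p = 0.0107, 0.000758 and 0.0222). Krt23 also passed in limma without a block when deletion tumor 3 or the 2 widest arrays were left out, and with the spread of the arrays in the model.

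Pnliprp1 and Pnliprp2, relatives of pancreatic lipase, differed by -2.40 and -2.17, each without overlap. Robo1, a receptor for the guidance cue Slit, was at 6.57, 6.80 and 8.16 in wild type tumors and at 4.05, 4.89 and 5.31 in deletion tumors. Tenm4, a teneurin of the cell surface, was at 6.89, 7.22 and 7.84 against 4.85, 5.37 and 5.69. The groups of both were apart by more than 1 log2 unit, and their limma adjusted p-values without the block were 0.0897 and 0.0563. With the block both passed, and so did the 2 lipase relatives (blocked limma adjusted p = 0.000236 for Robo1, Pnliprp1 and Pnliprp2, and 0.000258 for Tenm4). A further probe set of Tenm4 gave -0.96.

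Muc6, a gel-forming mucin better known from the stomach, was at 5.84, 6.20 and 6.82 in wild type tumors and at 4.51, 4.93 and 4.40 in deletion tumors. The difference of -1.68 ± 0.26 (SE) just missed the test (limma adjusted p = 0.0531). Cldn4, a tight junction protein, was at 9.75, 9.48 and 8.96 against 7.25, 7.86 and 7.87, a difference of -1.74 ± 0.35 (SE). The epithelial list to which it belongs had a median of 0.12, from -0.068 to 0.23 when 1 sample was left out. Slc9a3, the sodium and proton exchanger of the absorbing epithelium, was at 6.60, 7.16 and 7.33 against 5.38, 5.68 and 5.83, and S100g, an intracellular calcium carrier, at 5.22, 6.15 and 6.22 against 4.55, 4.59 and 4.69. None of these groups overlapped, and Muc6, Cldn4, Slc9a3 and S100g passed with the block (blocked limma adjusted p = 0.00569, 0.00586, 0.00386 and 0.0177).

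Matrix and signalling genes were also on the lower side. Of 15 matrix proteases and their inhibitors, 14 lay below 0, with a median of -0.60 and 6 without overlap, all lower (5.46% of all genes). Plat was the one that passed without the block. With it Plat and 1 member on the higher side, the stromelysin Mmp3 (0.89, overlapping groups), passed. Of all genes 0.908% were lower and passed with the block, and 0.21% were higher and passed. Mmp3 was at 0.41 without deletion tumor 1 and at 0.52 without wild type tumor 3. Mmp14, a membrane-bound matrix protease, was at 8.56, 8.73 and 9.34 in wild type tumors and at 7.69, 8.06 and 8.52 in deletion tumors, and passed neither fit (blocked limma adjusted p = 0.0652). Of 20 genes of TGF-beta and BMP signalling, 17 lay below 0 with a median of -0.33 and 6 were lower without overlap (5.46% of all genes). The ligand Bmp7 (-1.04) passed with the block (blocked limma adjusted p = 0.0311) and the inhibitory Smad7 (-1.06, or -0.64 without deletion tumor 1) did not (0.0629).

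Several secreted or stromal genes were lower in deletion tumors as well. Mgp, a matrix protein that restrains calcification, was at 11.11, 11.50 and 11.40 in wild type and at 8.21, 9.71 and 9.86 in the deletion. Tnfrsf11b, which encodes osteoprotegerin, the decoy receptor of the cytokine RANKL, was at 6.83, 7.20 and 7.48 against 5.42, 5.59 and 5.83. Their differences were -2.07 and -1.56 without overlap, with blocked limma adjusted p = 0.00165 for each. Pdgfra, a growth factor receptor of fibroblasts, differed by -0.94. The fibroblast list as a whole ran from -0.94 to 0.93, with a median of 0.00 (-0.21 to 0.13 when 1 sample was left out). Of its 17 tested members 9 lay above 0, and 2 were higher and 2 lower without overlap (4.05% and 5.46% of all genes). Its mean signals were 6.15, 6.45 and 6.69 in wild type and 6.17, 6.44 and 6.43 in the deletion.

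Mast cell genes were uneven. Mcpt1, a protease of mucosal mast cells, was at 5.55, 4.41 and 6.61 in wild type tumors and at 3.09, 3.62 and 3.66 in deletion tumors (log2 difference -2.07, blocked limma adjusted p = 0.01). Cpa3, which marks mast cells more broadly, was at 4.19, 3.73 and 6.47 against 3.83, 3.97 and 3.75. Only wild type tumor 3 stood high for Cpa3, and the groups overlapped (difference -0.95, or -0.11 without it). Of 10 mast cell genes 7 lay below 0 and 3 were lower without overlap (5.46% of all genes), with a median of -0.42 that was -0.13 without wild type tumor 3.

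**Figure D3:**
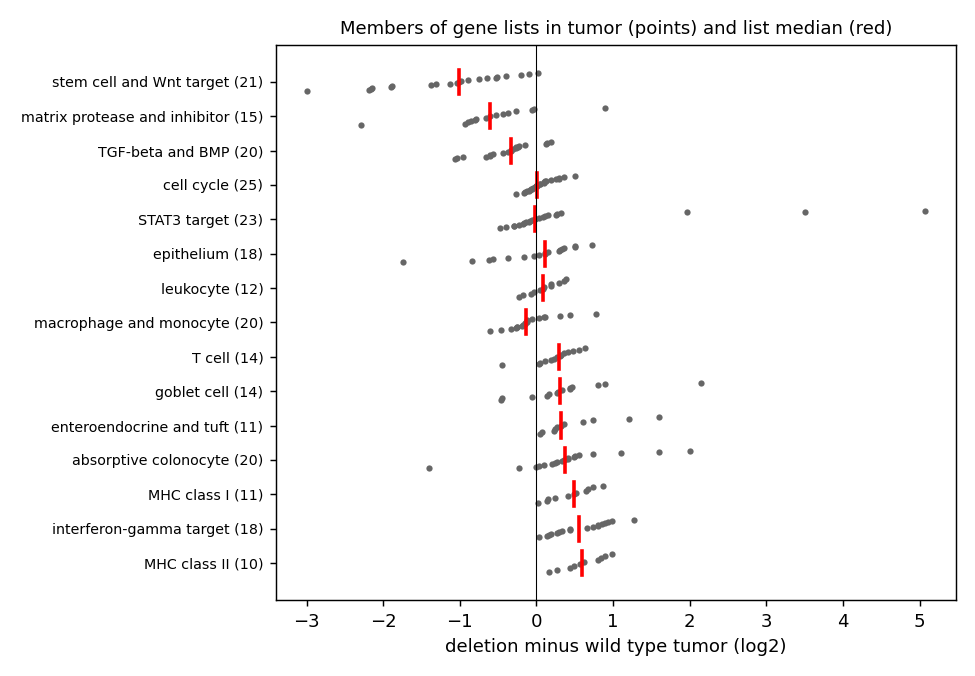
Deletion minus wild type tumor (log2) of the tested members of 15 gene lists, with members as points, the list median as a red bar and the number of members in brackets. Stem cell and Wnt targets have the lowest median (-1.01) and MHC class II genes the highest (0.60).

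On the higher side no gene passed in limma without the block, where 293 had an unadjusted p under 0.05, and the largest differences were in genes of mucosal defence. Reg3b and Reg3g encode lectins that gut epithelium secretes against bacteria. Reg3b was at 10.04, 4.91 and 5.23 in wild type tumors and at 12.26, 11.57 and 11.55 in deletion tumors. Wild type tumor 1 was thus closer to the deletion tumors than to the other 2 wild type tumors, though still below them. The difference was 5.07 ± 1.07 (SE), 33.5-fold, and 6.72 without wild type tumor 1 (limma adjusted p = 0.154, blocked 0.00165). Reg3g was at 9.55, 6.99 and 6.57 against 11.75, 10.88 and 11.01, with the same high wild type tumor 1 and a difference of 3.51 ± 0.77 (SE). Without wild type tumor 1 both Reg3 genes passed in limma without the block.

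Reg3b, Reg3g and Lrg1 belong to the list of genes known as STAT3 targets. Like the other lists, it was chosen with earlier results of these data known. Lrg1, a secreted glycoprotein of inflammation, was at 8.74, 8.51 and 6.31 in wild type tumors and at 9.64, 9.89 and 9.92 in deletion tumors, a difference of 1.96 (blocked limma adjusted p = 0.0315) that was 1.19 without wild type tumor 3, the lowest sample. These 3 were the members that passed with the block, where 0.21% of all genes were higher and passed. Without overlap, 3 members were higher and 1 was lower (4.05% and 5.46% of all genes). The 23 tested members had a median of -0.02 (from -0.12 to 0.057 when 1 sample was left out), with 13 below 0. Socs3, the feedback inhibitor that STAT3 switches on, was at 7.51, 7.49 and 6.77 against 7.39, 7.61 and 7.73, which overlap, and its other probe set was on the other side of 0. Other defence genes went both ways. Dmbt1, a mucosal scavenger protein (1.02), and Nos2, the inducible nitric oxide synthase (1.27), were higher without overlap and passed with the block (blocked limma adjusted p = 0.037 and 0.0385). Ang4, a Paneth and goblet cell ribonuclease (-1.23), was lower without overlap and did not pass (0.0629), and Pla2g2a, an antibacterial phospholipase (-1.31), was lower with overlapping groups and passed (0.0287). Without deletion tumor 1 these were -0.79 and -0.69, and without wild type tumor 3 Ang4 was at -0.57.

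Genes of mature colon epithelium were mostly on the higher side. Of 20 genes of absorptive colonocytes, 17 lay above 0 with a median of 0.38 (0.15 without wild type tumor 2), 4 higher and 1 lower without overlap (4.05% and 5.46% of all genes). Car4, a carbonic anhydrase of the surface epithelium, was at 5.51, 5.01 and 4.66 in wild type tumors and at 7.16, 6.97 and 7.06 in deletion tumors, with hardly any spread in the latter. Slc26a3, the chloride and bicarbonate exchanger, was at 3.97, 3.81 and 3.69 against 5.33, 5.02 and 5.92. Differences were 2.00 for Car4 and 1.60 for Slc26a3, and 1.11 for the water channel Aqp8, each passing with the block (blocked limma adjusted p = 0.000545, 0.00523 and 0.019). The exchanger Slc9a3, described above, was the member lower without overlap.

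Aqp4, another water channel, was at 6.06, 5.67 and 5.80 in wild type and at 8.04, 7.69 and 8.29 in the deletion. The groups were tight and more than 1.5 log2 units apart, for a difference of 2.16 ± 0.42 (SE) (limma adjusted p = 0.108, blocked 0.000236). It passed without a block when the 6 tumor arrays alone were fitted. Nox1, the colonic NADPH oxidase, was at 5.25, 5.09 and 5.31 against 6.37, 6.41 and 7.70. Nlrp6, an inflammasome sensor of the gut epithelium, was at 4.68, 4.66 and 5.05 against 6.18, 5.96 and 6.98. Slc5a8, which carries short-chain fatty acids, was higher by 1.64. Nox1, Nlrp6 and Slc5a8 passed with the block (blocked limma adjusted p = 0.00903, 0.00225 and 0.0385).

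Several genes of hormones and peptides were on the higher side. Tac1, the precursor of substance P, was at 4.78, 4.49 and 4.51 in wild type tumors and at 5.48, 6.77 and 7.70 in deletion tumors, with a wide spread in the deletion (difference 2.06, limma adjusted p = 0.108, blocked 0.0159). Pyy, a gut hormone of L cells, was at 7.13, 6.80 and 6.41 against 7.69, 8.63 and 8.81. All 11 tested enteroendocrine and tuft cell genes lay above 0, with a median of 0.31 and 4 higher without overlap (4.05% of all genes). Without wild type tumor 3 the median was 0.20, with 3 of 11 below 0, without wild type tumor 2 it was 0.49, and without the 2 widest arrays 0.13. Pyy (1.60) and the granule protein Chgb (1.20) passed with the block (blocked limma adjusted p = 0.0206 and 0.0139). Of 14 goblet cell genes 11 lay above 0, with a median of 0.31 that was 0.10 without deletion tumor 3 and 0.48 without deletion tumor 2. Retnlb, a goblet cell peptide, had overlapping groups, at 6.73, 4.62 and 3.68 against 9.15, 6.29 and 6.02. Its difference was 2.14 (blocked limma adjusted p = 0.000332). That p sets samples of the same number against each other, and these come from different mice. Without deletion tumor 1 the difference was 1.15.

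**Figure D4:**
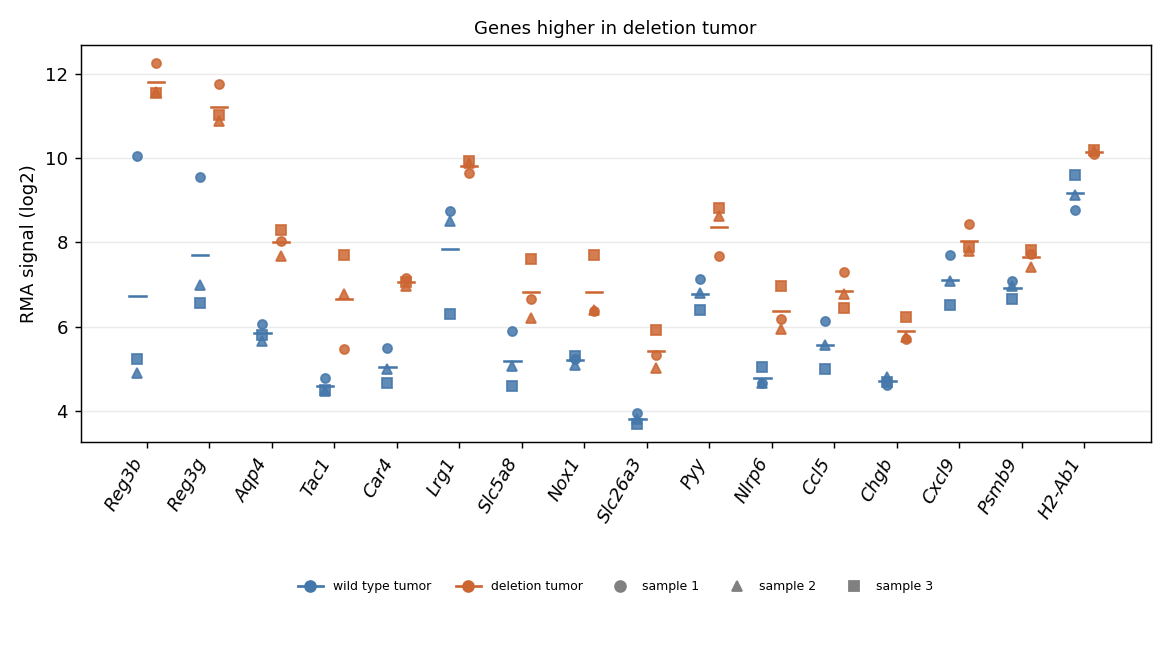
RMA signal (log2) of 16 genes higher in deletion tumor, in each tumor sample, with wild type in blue, deletion in orange, the sample number as the symbol and the group mean as a bar. Groups do not overlap in any of them, and wild type tumor 1 is high for Reg3b (10.04) and Reg3g (9.55).

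Genes of antigen presentation and of the response to interferon-gamma were mostly on the higher side, by small steps. Of 18 interferon-gamma targets 18 lay above 0, as did 11 of 11 MHC class I genes and 10 of 10 MHC class II genes, where 48.7% of all genes did. Their medians were 0.55, 0.49 and 0.60, and 7, 8 and 6 of them had non-overlapping groups, all higher (4.05% of all genes). None passed in limma without a block, and 2, 0 and 2 passed with it, where 0.21% of all genes were higher and passed. Without deletion tumor 3, 3 of 18 and 2 of 11 of the first 2 lists lay below 0. With array weights their medians were 0.22, with 6 of 18 below 0, and 0.21 (0.24 and 0.26 with gene-by-gene weights), and without the 2 widest arrays that of class I was 0.28. Ciita, the master regulator of class II genes, is in the interferon-gamma list and in that of class II.

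H2-Ab1, a chain of the class II molecule, was at 8.77, 9.13 and 9.59 in wild type tumors and at 10.10, 10.17 and 10.19 in deletion tumors. The deletion tumors were nearly equal and all above the wild type tumors. H2-Ab1 and the related chain H2-Eb1 differed by 0.99 and 0.90 and passed with the block (blocked limma adjusted p = 0.0385 and 0.0399). In class I presentation, the immunoproteasome subunit Psmb9 was at 7.09, 6.98 and 6.67 against 7.72, 7.41 and 7.82, and the heavy chain H2-K1 was higher by 0.51, both without overlap and neither passing (blocked limma adjusted p = 0.115 and 0.28).

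Among chemokines, Cxcl9, which interferon-gamma induces, was at 7.70, 7.08 and 6.53 in wild type and at 8.44, 7.79 and 7.89 in the deletion (difference 0.93, blocked limma adjusted p = 0.0496). Ccl5, made by T cells and others, was at 6.15, 5.57 and 5.01 against 7.30, 6.78 and 6.44 (difference 1.26, blocked limma adjusted p = 0.00806). Neither overlapped. Of 14 T cell genes 13 lay above 0, where 48.7% of all genes did, with a median of 0.29. That median was 0.13 without wild type tumor 3 and 0.19 without deletion tumor 2. Without overlap, 3 T cell genes were higher and 1 was lower (4.05% and 5.46% of all genes). The share of T cell RNA in the interferon and class II differences was not tested. Type I interferon genes, 17 in number, had 11 above 0 and a median of 0.10. Without single samples that median ran from 0.012 to 0.20. Cell cycle genes had 14 of 25 above 0, a median of 0.01, and 0 with non-overlapping groups. This balance depended on single arrays, with 24 of 25 above 0 (median 0.24) without deletion tumor 1 and 20 of 25 below 0 (median -0.15) without deletion tumor 3. The median was 0.16 without wild type tumor 3, 0.22 with the array spread in the model and 0.098 after quantile normalization.

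Stroma of the same genotypes was used to see whether tumor stood apart. In stroma 0 genes passed in limma, and the test of the difference between the tumor effect and the stroma effect called 0 of 16635 genes, with 401 at an unadjusted p under 0.05 and a smallest adjusted p of 0.995. No gene can therefore be called particular to tumor. Dkk2, Stra6, Plat and Apcdd1 differed by -1.80, -1.31, -1.24 and -2.13 in stroma, the same side as in tumor. The stem cell and Wnt target list had a median of -0.80 in stroma, and mean signals of 6.78 in wild type and 5.81 in deletion stroma. On the higher side, Aqp4 (2.08), Car4 (3.16), Ccl5 (2.02) and H2-Ab1 (1.22) had like signs in stroma. List medians in stroma were 0.80 for absorptive colonocytes, 0.79 for goblet cells and 0.07 for enteroendocrine and tuft cells. They were 0.73 for interferon-gamma targets, 0.60 for MHC class I and 0.97 for MHC class II. The labels do not say whether tumor and stroma of 1 number came from 1 mouse, nor how much stroma the tumor cuts still held.

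Where the point estimates of tumor and stroma were farthest apart, leukocyte genes were among them. Cd53, a leukocyte tetraspanin, differed by 0.08 in tumor and 1.72 in stroma, and the costimulatory molecule Cd86 by -0.37 and 0.86. The leukocyte list had a median of 0.09 in tumor and 1.00 in stroma. Tnfrsf11b, Mgp, S100g and Slc9a3 differed by -0.16, -0.15, -0.03 and 0.51 in stroma and by -1.56, -2.07, -1.25 and -1.40 in tumor. In all of these the tumor estimate lay below the stroma one, and genes that went the other way are not listed here. The limma interaction test gave an adjusted p of 0.995 for each of these 6 genes.

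**Figure D5:**
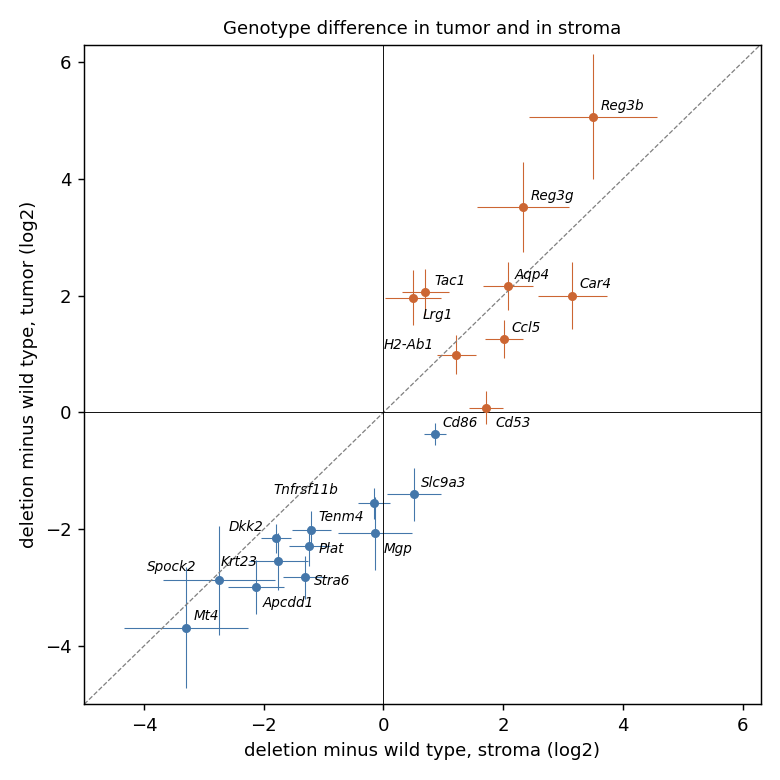
Deletion minus wild type in tumor (log2, vertical) against the same in stroma (log2, horizontal) for 21 genes named in the text, with bars of 1 standard error and a dashed line where both are equal. Genes below 0 in tumor are blue and those above 0 orange, and Tnfrsf11b, Mgp, Slc9a3, Cd86 and Cd53 lie well off the line.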

How the data were processed

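For each of 41345 probe sets the authors deposited a log2 signal. The submitters' processing notes name RMA (robust multi-array average) and version 1.3.1 of Affymetrix Expression Console. These log2 values were used as deposited. The number of arrays, 3 per group, limits the precision, and for a single gene the smallest exact permutation p of 3 against 3 is 0.1.

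Gene names came from the annotation of the platform. Of 25335 listed, 23521 had 1 symbol and 1814 several, and 16010 more were not listed. RefSeq (GRCm38.p6) held 23328 of the named ones, with 0 symbols altered. This gave 22180 genes. Where a gene had more than 1 probe set (1082 genes), that with the highest mean over the 12 arrays was taken. Genes in the lowest 25% by mean signal, below log2 3.65, were not tested.

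All 12 arrays were fitted in limma 3.58.1 (R 4.3.3) with 4 group means, eBayes and Benjamini-Hochberg adjustment over 16635 genes at 0.05. The fit was tested on simulated data. Deviations of same-numbered wild type and deletion tumors from their group means correlated over genes at 0.317, 0.15 and 0.692 for numbers 1 to 3, which is the only basis for treating the numbers as pairs. Number 3 is the widest array of both genotypes, and wild type tumor 2 correlated better with deletion tumor 1 (0.593) than with its own number. The blocked fit used the 6 tumor arrays.

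The samples, the 42 gene lists (689 names, 635 found on the array) and the rule for named genes were chosen with earlier results of these data known. The rule takes Stat3, the 20 largest differences on the lower side and 12 on the higher side without overlap, the 4 smallest p in each direction and for the interaction, and from each list 3 smallest p and the first 2 names. Where under 5 genes pass in a direction, an unadjusted p under 0.05 takes the place of the adjusted one. It skips predicted genes, small RNAs, segments of immune receptors, and olfactory or vomeronasal receptors. Muc6, Znrf3, Sp5, Tnfrsf11b, Aqp8, Dmbt1, Pla2g2a, Ang4, Dkk3, Rnf43, Tnfrsf19, Sox9, Myc, Cd44, Ephb3 and Nos2 fall outside it and were named after their values were seen. Alternatives covered the filter, normalization, choice of probe set, array weights and spread, the block and leaving out each sample.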

Additional observations from a re-analysis of the deposited data

How the results depend on the processing

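The count of genes called in tumor, 3, was 5 with the lowest 50% of genes left out, 5 with limma-trend, 14 with the array spread as a covariate and 0 to 7 when single samples were left out. Pairing by replicate number as a fixed block gave 186 on the 6 tumor arrays and 89 (80 lower, 9 higher) on all 12. As a random block, genotype and number together gave 3, without Plat (limma adjusted p = 0.0557). Array weights gave 1579 (956 lower, 623 higher), but that estimate stopped before it converged. Gene-by-gene weights, chosen after seeing the data, gave 303 (223 lower, 80 higher). The tumor against stroma difference, with 0 calls, had 4 and 3 under these weights. Plat was not called after quantile normalization (limma adjusted p = 0.065), median centring (0.0935) or with the tumor arrays alone (0.194). Without the 2 widest arrays Dkk2 and Stra6 were not called (limma adjusted p = 0.0735 and 0.142). Genes without overlap, 1583 (9.52%), were 6802 without the 2 widest arrays and 2295 to 5804 when 1 sample was left out, since smaller groups overlap less.

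Signs turned only for small differences among the 74 genes examined: Stat3 to 0.14, the gene Epcam to 0.026 (quantile normalization) and 0.072 (array spread), and Ephb3 to -0.031 (median centring) and -0.11 (without the 2 widest arrays). When 1 sample was left out, Epcam ran from -0.34 to 0.031, Cd53 from -0.076 to 0.32 and Ephb3 from -0.23 to 0.29. Median centring moved the median of all genes to -0.057 and quantile normalization to 0.022. Of the values under the alternatives for these genes, 1276 kept their direction and side of the threshold, 173 gained a call, 15 lost one and 11 turned. Signal over background was not used here, so how far dim genes are limited by it is unknown.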

Other observations

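Probe sets without a single gene symbol held no called difference. Of 9208 such probe sets fitted in limma, 0 passed adjusted p 0.05 between deletion and wild type tumor, 344 had an unadjusted p under 0.05, and 367 were lower and 361 higher without overlap. Among the named genes tested, 5.46% were lower and 4.05% higher without overlap.

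Dkk3, a secreted relative of Dkk2 with no settled role as a Wnt inhibitor, was at 6.13, 6.48 and 7.48 in wild type tumors and at 5.46, 5.76 and 5.92 in deletion tumors. The groups did not overlap, the log2 difference was -0.98 ± 0.40 (SE), or -0.59 without wild type tumor 3, and the limma adjusted p with the replicate number as a block was 0.0518. It was thus on the same side as Dkk2, with a smaller difference.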
